A study of Mus musculus with 12 samples.

Results

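Tagged GZF1 was compared between 2 lines of mouse embryonic stem cells that overexpressed Gzf1-Flag, and its peaks were described as shared or line-specific. The comparison used 2 of the 12 chromatin immunoprecipitation libraries of the series. Clone 35 of the Cas9 line (cell line label Cas9-GFP) stood on one side, and clone 56 of the RGM line, whose label gives a 129xCAST background, on the other. In each clone the tagged protein was expressed ectopically and pulled down with the anti-FLAG M2 antibody after formaldehyde fixation and micrococcal nuclease digestion. Each side was 1 library from 1 clone, so line, clone and library cannot be told apart, and no test was made. The promoter that drove Gzf1-Flag, its level in each clone and the state of the endogenous Gzf1 gene are not given in the sources used here.

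GZF1 is a zinc-finger protein with a BTB domain that binds DNA, and it is known from GDNF and RET signalling in the developing kidney. FLAG is a short peptide tag that lets a well-characterised antibody pull down the fused protein. The series as a whole concerns the Dlk1-Dio3 domain, an imprinted cluster in which Dlk1, Rtl1 and Dio3 are expressed from the paternal copy and Meg3, Rian and Mirg from the maternal copy. A control region in the interval from Dlk1 to Meg3, the IG-DMR, is methylated on the paternal copy and governs this pattern.

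Reads were counted in 1 kb bins, and each library was divided by its autosomal mean to give a density. The log2 value of a bin set its density against its local background, the median of the 10 bins on each side, with 0.5 added to both. Of 2462755 autosomal bins, 2252100 (91.4%) were compared. A bin was called a peak at a log2 value of 2 or more. The call was made for 134 bins in the Cas9 clone and 93 in the RGM clone, 158 bins in all, which formed 131 regions. Of these regions 104 were 1 bin wide and 27 were 2 bins wide. The Cas9 library held 70.0 M reads (27.2 per autosomal bin) and the RGM library 67.0 M (26.5 per bin). Other libraries with 1 sample each are given beside the peaks: wild-type cells with anti-GZF1 (60.6 M reads in Cas9, 21.8 M in RGM), and in Cas9 cells also a Gzf1 knockout and a control with anti-GZF1 (85.9 M and 94.2 M reads), H3K27ac (40.8 M) and input (10.1 M). At the threshold, the lowest shared bin had 2.01 in its lower line and the highest bin that missed sharing had 1.998. The cell type could not be checked well here: H3K27ac at the gene ends, the one readout available, had a median log2 value of 0.53 over 12 embryonic stem cell markers and 0.55 over 8 fibroblast markers, against 0.47 over all genes.

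At the promoters bound in both clones a short word recurred, so these sequences are shown first. RefSeq promoter windows (GRCm38.p6, the mm10 assembly, 250 bases before to 50 after each annotated start) lay at 12 shared peak bins, each window being placed in the higher of the bins it touches. These were the windows of 15 genes, and 1 window per bin, the first in the table, was kept for the shares below, which leaves 12 windows at shared peaks and 22264 in all. The 5-letter word TACGG, searched on both strands, was found in 8 of the 12 (66.7%), against 10.1% of all. With every window counted it was in 8 of 15, against 10.5% of all 25295. It was the word whose share differed most from that of all promoters among 512 words of 5 letters, each counted together with its reverse complement, so the difference is a description of a chosen word. Each line gives 21 bases in the direction of the gene, with the word in capitals.
Vat1l: ctaaggatTACGGcggaggcg
Pdzrn3: cgagccaaTACGGccggagga
Lurap1l: ctgtgacaTACGGtacagggg
Rbmxl1: cgagacatTACGGcgacgacc
Dnajb12: aggagacaTACGGtagggctt
Cd320: cgggtactTACGGtcgcaggc
Fbxw10, upstream copy: aggagattTACGGtaaagcca
Fbxw10, downstream copy: cagtgcctTACGGtttctcca
Kif22: ggcggaatTACGGtaaattag
In all 9 copies the word stood on the strand of the gene. Upstream copies began between 21 bases (Rbmxl1) and 172 bases (Pdzrn3) before the annotated start, and the downstream copy in Fbxw10 began 29 bases after it. A T followed the word in 6 of the copies and a C in 3. TACGGTA was present in 4 of the 12 windows (33.3%), against 0.31% of all, and TTACGG, which overlaps TACGG, in 5 (41.7%), against 2.55%. Both longer words extend the chosen word in the same windows, so their shares are descriptions as well and add no separate support.

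The windows at shared peaks also held more CpG, with a median of 13.5 per window against 5 in all promoters, and the word contains one. Among windows with 10 or more CpG the word was present in 6 of 7 at shared peaks and in 16.8% of all 7572. Among windows with fewer it was present in 2 of 5 at shared peaks and in 6.6% of all 14692. The word was not graded evenly with the signal: its share was 8.25% of promoters whose lower line was below a log2 value of 0.5, 15.8% from 0.5 to 1, 19.4% from 1 to 1.5, 14.3% (3 of 21) from 1.5 to 2 and 66.7% above. At peaks with only one line past the threshold, it was present in 1 of 11 windows where Cas9 was the higher line and in 4 of 10 where RGM was, with every window that touches such a bin counted. TGCGCNNNTATA, the core of the GZF1 motif known from selection experiments, matched none of the 12 windows and 0.018% of all (4 of 22264). TGCCGC, the motif of the imprint-maintaining factor ZFP57, matched 2 of 12 (16.7%), against 9.28% of all. A match is a description of letters, not a binding site. 3 of the windows are given whole: Vat1l as the highest shared peak, Dnajb12 as one with the longer TACGGTA, and Fbxw10 as the one with 2 copies. The sequence of the peak between Dlk1 and Meg3 is not given, since it lies outside these windows.
Vat1l (chr8:114205390-114205689, plus strand): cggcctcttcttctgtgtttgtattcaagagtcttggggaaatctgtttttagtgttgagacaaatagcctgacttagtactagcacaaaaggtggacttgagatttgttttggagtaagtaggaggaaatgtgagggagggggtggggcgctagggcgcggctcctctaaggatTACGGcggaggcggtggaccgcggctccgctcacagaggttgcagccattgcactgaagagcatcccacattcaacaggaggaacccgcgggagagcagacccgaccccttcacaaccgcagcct
Dnajb12 (chr10:59879333-59879632, plus strand): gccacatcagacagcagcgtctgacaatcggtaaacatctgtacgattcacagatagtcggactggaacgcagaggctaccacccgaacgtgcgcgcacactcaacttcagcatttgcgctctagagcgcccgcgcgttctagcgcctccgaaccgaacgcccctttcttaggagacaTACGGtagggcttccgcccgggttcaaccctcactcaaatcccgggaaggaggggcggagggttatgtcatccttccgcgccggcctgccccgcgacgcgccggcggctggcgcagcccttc
Fbxw10 (chr11:62846873-62847172, plus strand): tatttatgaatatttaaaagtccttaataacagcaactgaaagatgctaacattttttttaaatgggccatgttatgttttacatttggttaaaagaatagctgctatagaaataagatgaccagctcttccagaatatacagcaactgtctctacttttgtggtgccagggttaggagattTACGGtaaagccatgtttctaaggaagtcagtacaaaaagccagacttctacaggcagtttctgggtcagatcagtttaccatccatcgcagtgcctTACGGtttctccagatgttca

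At the threshold of 2 most RGM peak bins were shared with Cas9. Both clones passed the threshold in 69 bins, in 59 regions on 18 of the 19 autosomes, which is 51.5% of the Cas9 peak bins and 74.2% of the RGM peak bins. Over all bins compared, 0.00595% were peaks in Cas9, 0.00413% in RGM and 0.00306% in both. A further 65 Cas9 peak bins had a log2 value between 1 and 2 in RGM, and 15 RGM peak bins had one between 1 and 2 in Cas9. No Cas9 peak bin was below 1 in RGM, whereas 9 RGM peak bins were below 1 in Cas9. At a threshold of 1.5 the order of the totals turned round, with 331 bins in Cas9 and 703 in RGM, 171 of them shared, 57 below 1 in RGM and 283 below 1 in Cas9. With 0.25 in place of 0.5 added, 94 of 185 RGM peak bins were shared, 4 Cas9 peak bins were below 1 in RGM and 24 RGM peak bins below 1 in Cas9.

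**Figure D1:**
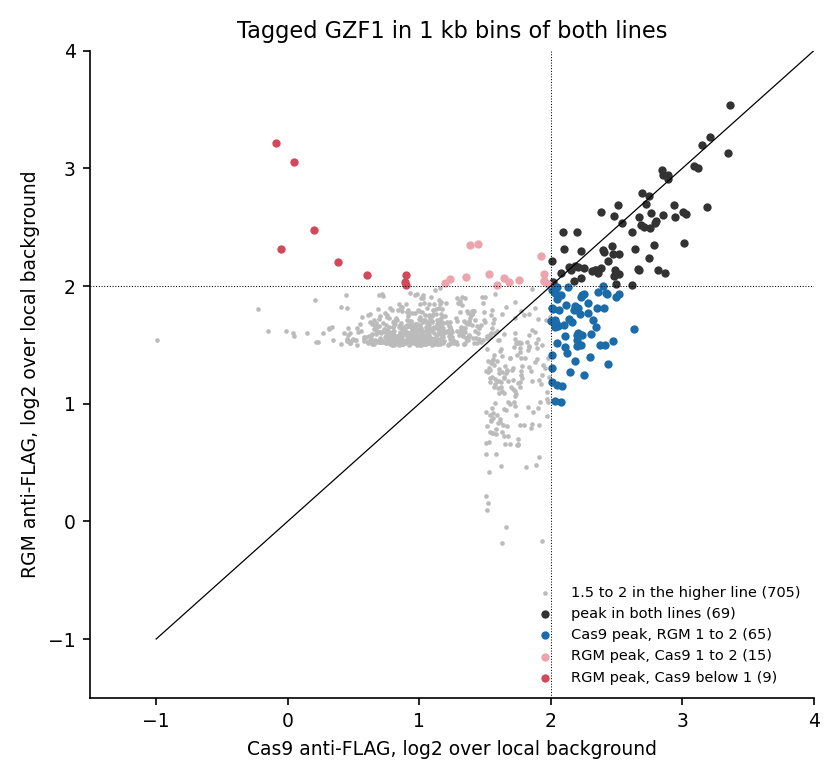
Log2 values over local background in the Cas9 clone (x axis) and the RGM clone (y axis), 1 dot per 1 kb bin, with peak bins coloured by class and the 705 bins at 1.5 to 2 in their higher line in grey. Shared peaks lie along the diagonal up to 3.36 in Cas9 and 3.54 in RGM, and 9 bins stand at the upper left, high in RGM and below 1 in Cas9.

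In the 69 shared bins the median log2 value was 2.62 in Cas9 and 2.35 in RGM, and 49 of them were higher in Cas9. The ratio of the folds over local background, Cas9 over RGM, had a median of 1.11 and ran from 0.706 to 1.83. Its 95% exact binomial (Clopper-Pearson) interval, with the local background taken as fixed, lay above 1 in 24 bins, below 1 in 6 and held 1 in 39. None of the intervals lay beyond 2 or 0.5, in bins that were chosen as high in both. Such intervals and the exact Poisson intervals below cover counting error only, and amplified reads are not independent molecules. The Spearman correlation of the 2 log2 values was 0.685 over the shared bins, which share their threshold, and 0.319 over all bins compared.

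The strongest shared region was the promoter of Vat1l, the gene of a protein related to a synaptic vesicle protein, at chr8:114205001-114206000. The Cas9 clone had 493.8 reads there, or a density of 18.2 (95% interval 16.6 to 19.8), and the RGM clone 442.1 reads, or 16.7 (15.2 to 18.3). Over local background this was 13.8-fold in Cas9 and 17.1-fold in RGM. The promoter of Pdzrn3, a ubiquitin ligase with PDZ domains, had 508.0 reads in Cas9 and 485.6 in RGM at chr6:101378001-101379000, with log2 values of 3.35 and 3.13. Adra1a, the alpha-1A adrenergic receptor gene, had 464.0 reads in Cas9 and 453.1 in RGM at chr14:66635001-66636000, with log2 values of 3.15 and 3.20. At these 3 genes the 2 clones were within a ratio of 0.809 to 1.21 of each other.

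Of the 15 shared regions with the highest value in their lower line, 14 are named here. Besides those above they comprise the peak between Dlk1 and Meg3, the gene bodies of Slc35d2 (a nucleotide sugar transporter), Usp25 (a deubiquitinase) and Nav2 (neuron navigator), and Lurap1l, where the peak was at the promoter. Peaks at Csmd3 and at Ptk2b (the kinase PYK2) lay within 5 kb of a gene end. Others were near Gm10076, in Gm33257, and at chr13:111509001-111510000 and chr10:41004001-41005000, which had no gene within 5 kb. Slc35d2 held the most reads in RGM among them, 563.6 in Cas9 and 600.4 in RGM at chr13:64123001-64124000, with log2 values of 2.89 and 2.95. Usp25 had 381.1 reads in Cas9 and 339.6 in RGM at chr16:77041001-77042000. The Cas9 over RGM ratio in the 15 regions ran from 0.800 to 1.45, and its interval held 1 in 8 of them, lay above 1 in 4 and below 1 in 3. Nav2 was the one with the largest ratio, with 529.0 reads in Cas9 and 358.1 in RGM at chr7:49522001-49523000, a ratio of 1.45 (1.27 to 1.67).

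**Figure D2:**
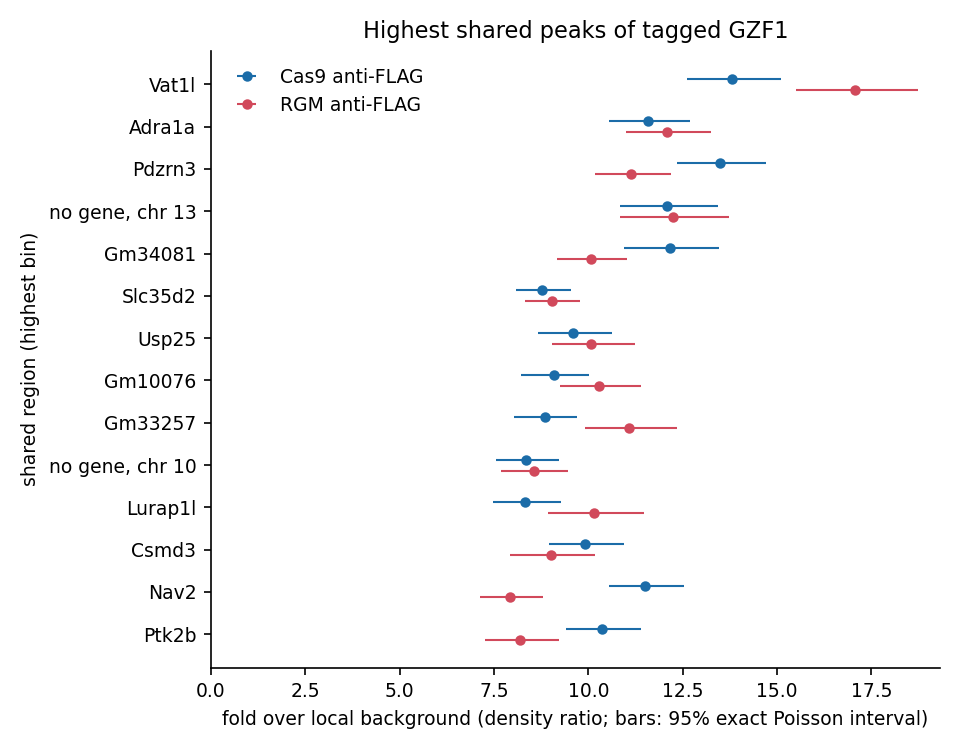
Fold over local background in the Cas9 clone (blue, upper dot) and the RGM clone (red, lower dot) at the highest bin of 14 shared regions, with 95% exact Poisson intervals of the counts. Vat1l reaches 13.8-fold in Cas9 and 17.1-fold in RGM, and Nav2 11.5-fold in Cas9 and 7.93-fold in RGM. Intervals of the clones overlap in most regions and are apart at Vat1l, Pdzrn3, Gm33257, Nav2 and Ptk2b.

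Further down the shared list, promoters included those of Dnajb12, a membrane-bound co-chaperone of the endoplasmic reticulum (485.2 reads in Cas9, 427.6 in RGM), Cald1, the actin-binding protein caldesmon (518.2 in Cas9, 444.8 in RGM), and Cd320, the transcobalamin receptor (472.5 in Cas9, 352.1 in RGM). Fbxw10, an F-box protein gene with 2 copies of the word, had 408.3 reads in Cas9 and 331.9 in RGM. Kif22, a chromosome-binding kinesin, had 336.1 reads in Cas9 and 246.8 in RGM. The bin between Rbmxl1 and Slc10a7, whose promoters face away from each other, had 422.0 in Cas9 and 364.2 in RGM. The shared bins with the largest ratios were in Utrn, the utrophin gene (334.4 reads in Cas9, 224.4 in RGM, ratio 1.83, interval 1.54 to 2.18), and in Lsamp, a neuronal adhesion gene (287.7 in Cas9, 186.4 in RGM, ratio 1.66, interval 1.38 to 2.01). In position, 13 of the 69 shared bins (18.8%) touched a promoter window, both bins of a window counted here, against 1.24% of all bins compared. A further 22 (31.9%, against 23.4%) lay within 5 kb of a gene end, 15 (21.7%, against 35.2%) inside a gene and 19 (27.5%, against 40.2%) at neither.

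The peaks were narrow in both clones. In the shared bins the median fold over local background was 7.97 in Cas9 and 6.71 in RGM. In the neighbouring bins it dropped to 3.80 upstream and 3.09 downstream in Cas9, and to 3.04 upstream and 2.63 downstream in RGM. At 2 kb it lay between 1.57 and 1.74 in Cas9 and between 1.46 and 1.65 in RGM.

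**Figure D3:**
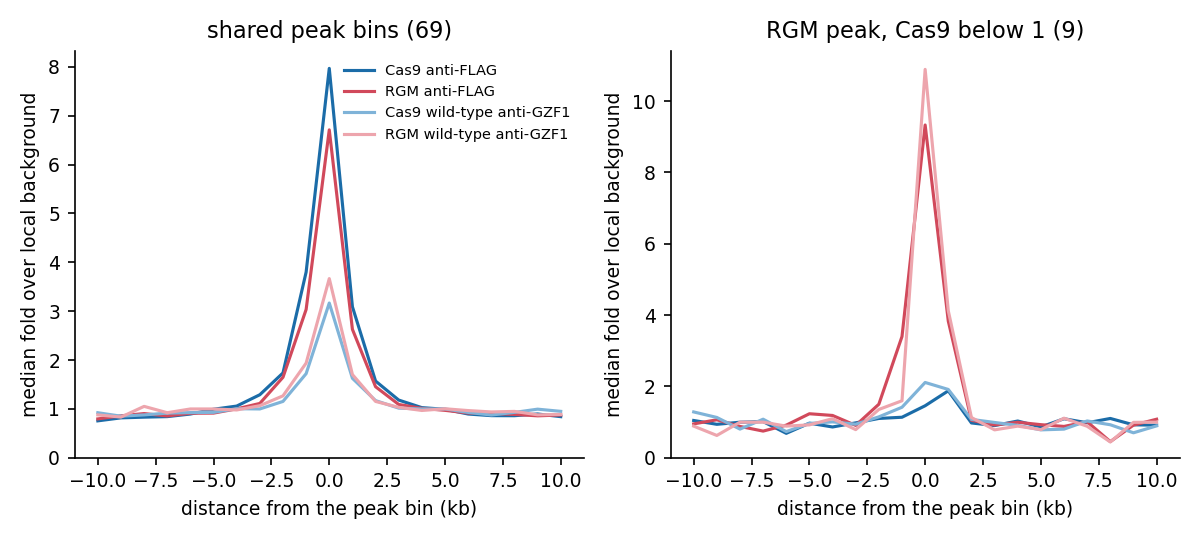
Median fold over local background by distance from the peak bin (kb) in both anti-FLAG libraries and both wild-type anti-GZF1 libraries, for the 69 shared bins (left) and the 9 RGM peak bins below 1 in Cas9 (right). At the centre of the shared bins the anti-FLAG medians are 7.97 in Cas9 and 6.71 in RGM, while in the panel on the right the RGM libraries reach 9.33 (anti-FLAG) and 10.9 (anti-GZF1).

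Wild-type anti-GZF1 libraries, which the peak rule did not use, were raised at most shared bins in both lines. The median log2 value over the 69 bins was 1.39 in Cas9 wild type and 1.53 in RGM wild type. It was 1 or more in 51 bins in Cas9 (0.269% of all bins compared) and in 56 in RGM (2.03% of all bins). Both lines were at 1 or more in 44 bins, against 0.206% of all bins. In all of the 15 strongest shared regions both wild types were past 1, with a range of 1.17 to 2.70 in Cas9 and 1.15 to 3.22 in RGM. In the Gzf1 knockout of Cas9 with the same antibody the median was 0.19 and no shared bin reached 1 (0.0312% of all bins). In the Cas9 control with anti-GZF1 it was 0.31, and 1 bin reached 1 (0.0257% of all bins). H3K27ac had a median of 0.32 with 9 bins at 1 or more (0.343% of all bins), and the input a median of 0.26 with 7 (6.14% of all bins). Unlike the other libraries here, the input was used in choosing the bins. Those with an input above 3 times its mean were left out, 56 of them past the threshold in both clones. A low input at the shared bins thus follows in part from the choice. The RGM wild-type library had 8.61 reads per autosomal bin, and its counts in the shared bins ran from 6 to 116.7 reads.

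**Figure D4:**
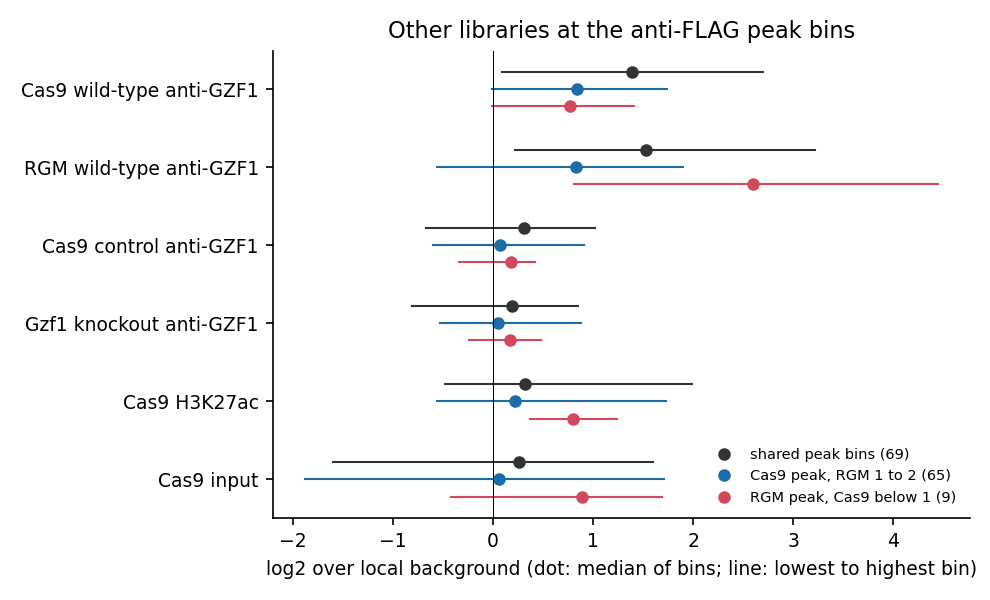
Log2 over local background of 6 further libraries at the shared peak bins (black), the Cas9 peak bins with RGM at 1 to 2 (blue) and the RGM peak bins with Cas9 below 1 (red), as median (dot) and lowest to highest bin (line). At shared bins the medians are 1.39 in Cas9 wild type and 1.53 in RGM wild type, and 0.19 in the knockout, and at the 9 bins in red RGM wild type has 2.60.

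Peaks with RGM alone past the limits were few and were led by the genes of a ceramide synthase and a ubiquitin shuttle factor. Cers5, at chr15:99735001-99736000, had 36.5 reads in the Cas9 clone, or a density of 1.34 (0.927 to 1.83), and 477.3 reads in the RGM clone, or 18.03 (16.4 to 19.7). Ubqln1, at chr13:58177001-58178000, had 35.8 reads in the Cas9 clone, or a density of 1.31 (0.927 to 1.83), and 396.0 reads in the RGM clone, or 14.96 (13.5 to 16.5). At both genes Cas9 stood at its local background (log2 values of -0.09 and 0.05), whereas RGM was among its highest bins (3.22 and 3.06). The Cas9 over RGM ratio was 0.0760 (0.0520 to 0.106) at Cers5 and 0.0948 (0.0659 to 0.135) at Ubqln1.

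The wild-type cells of the same lines, without the tag, differed in the same way at these genes. At Cers5 anti-GZF1 gave 43 reads in Cas9 wild type and 340.9 in RGM wild type, with log2 values of -0.01 and 4.45. At Ubqln1 it gave 38.2 reads in Cas9 wild type and 261.9 in RGM wild type, with log2 values of 0.32 and 4.34. The RGM wild-type value was thus above the anti-FLAG value of the same line at both. No knockout or input library of RGM was analysed here, and the control and knockout of Cas9 had log2 values of -0.24 to 0.26 at these bins.

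The other 7 bins had smaller counts. The next highest was in the T cell receptor alpha locus Tcra and Gm30392 at chr14:53935001-53936000, with 15 reads in Cas9 and 149.3 in RGM (ratio 0.143, interval 0.0782 to 0.244). A bin with no gene within 5 kb, chr13:61584001-61585000, had 16 reads in Cas9 and 89.7 in RGM. In Zfp993, a zinc-finger gene, 2 separate bins had 39.1 and 39.7 reads in Cas9, against 103.3 and 90.0 in RGM, where the local background was lower (0.983 and 0.791 in Cas9, 0.453 and 0.416 in RGM). Gm6089 had 45.6 in Cas9 and 116.0 in RGM, Gm9732 had 37.3 in Cas9 and 72.1 in RGM, and Pbx3, a homeobox gene, had 74.1 in Cas9 and 158.5 in RGM. These 3 stood between 0.89 and 0.90 in Cas9, just under the limit of 1, and at 2.01 to 2.10 in RGM. The ratios ran from 0.0760 to 0.411, low by the way the bins were chosen, from the same counts. RGM wild type had a median of 2.60 over the 9 bins, with 8 at 1 or more, and Cas9 wild type a median of 0.77, with 3 at 1 or more. RGM wild-type anti-GZF1 exceeded RGM anti-FLAG in 5 of the 9 bins and in 3 of the 69 shared bins. The median local background of the 9 bins was 0.791 in Cas9 and 0.605 in RGM, lower than in the shared bins (1.51 in Cas9, 1.42 in RGM), and H3K27ac had a median log2 value of 0.80, with 3 bins at 1 or more. The Cas9 input was itself raised at the 9 bins, with a median log2 value of 0.89 and 4 bins (44.4%) at 1 or more. It was at 1 or more in 10.1% of the shared bins, but these shares depend on a filter on the input itself. Bins with an input above 3 times its mean had been left out, among them 56 shared and 2 RGM-specific bins. The part of the input in the RGM values was not tested. None of the 9 overlapped a promoter window.

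Among the 15 RGM peak bins with Cas9 between 1 and 2, the median log2 value was 1.65 in Cas9 and 2.06 in RGM, the direction being set by the choice. The lowest ratio, 0.341 (0.249 to 0.457), was at Gm9732, 3 kb from the bin above, with 82.4 reads in Cas9 and 100.5 in RGM. Its densities were closer, 3.03 in Cas9 and 3.80 in RGM, and its local background was 0.795 in Cas9 and 0.34 in RGM. Stxbp5l, a syntaxin-binding gene, had 92.2 in Cas9 and 143.2 in RGM. Chek1, a checkpoint kinase gene, had 238.0 in Cas9 and 233.7 in RGM, and its ratio of 0.742 (0.616 to 0.891) came with a local background of 1.94 in Cas9 and 1.45 in RGM. H3K27ac was at 1 or more in 9 of these 15 bins, and wild-type anti-GZF1 in 11 in Cas9 and in 11 in RGM. With anti-GZF1 the Cas9 control had a median of 0.66 and the knockout 0.38, with no bin at 1 or more in either. These medians were 0.31 and 0.19 at the shared bins. The Cas9 input had a median of 0.56, with 4 bins (26.7%) at 1 or more. A promoter window was touched by 7 of the 15 bins (46.7%). H3K27ac was at 1 or more in 3 of the 65 bins where Cas9 was the higher line. The part of H3K27ac-marked chromatin in the RGM values was not tested.

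In 65 bins Cas9 passed the threshold and RGM had a log2 value of 1 to 2. Over these bins the median log2 value was 2.18 in Cas9 and 1.69 in RGM. The ratio had a median of 1.48, and since the bins were chosen on these same values its direction and range follow from the choice. As no peak was called in Cas9 with RGM below 1, the genes named here were chosen after their values were seen. Cntnap2, a neurexin-family gene, had 175.5 reads in Cas9 and 85.1 in RGM at chr6:45579001-45580000, a ratio of 2.47 (1.90 to 3.25). Lrp1, a lipoprotein receptor gene, had 195.8 in Cas9 and 120.1 in RGM, a ratio of 2.27 (1.80 to 2.87). Unc79, a subunit gene of the NALCN channel complex, had 260.8 in Cas9 and 140.4 in RGM, a ratio of 2.19 (1.78 to 2.72). The muscle gene Dok7 and the neuronal factor gene Myt1l followed, at 236.9 and 196.0 reads in Cas9, against 140.1 and 115.6 in RGM.

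At these bins the medians of the wild-type libraries were close to each other. Wild-type anti-GZF1 had a median log2 value of 0.83 in Cas9 and 0.83 in RGM, with 21 of the 65 bins at 1 or more in Cas9, 27 in RGM and 11 in both. The RGM wild-type value was the higher one in 34 of the 65. At the 9 RGM bins it was the higher one in 8, and at the shared bins in 46 of 69. At the 15 RGM peak bins with Cas9 between 1 and 2 it was the higher one in 13. The same share over all bins was not computed. RGM wild type had 8.61 reads per bin, against 23.6 in Cas9 wild type. Its log2 values over all bins also spread more widely (standard deviation 0.55, against 0.373).

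The peak between Dlk1 and Meg3 was carried by both clones, over 3 adjacent bins inside the non-coding gene Gm34081. The highest, chr12:109527001-109528000, reached a log2 value of 3.12 in Cas9 cells and 3.01 in RGM cells and ranked 6th by its lower line among all shared regions. The bin before it had 134.6 reads in Cas9 and 236.5 in RGM (1.76 and 2.05), and the bin after it 116.3 in Cas9 and 143.4 in RGM (1.57 and 1.41). These were the only bins between the genes at 1 or more in either clone, against 0.114% of all bins in Cas9, 0.294% in RGM and 0.0639% in both. At the highest bin the ratio of folds was 1.21 (1.05 to 1.39), whereas the ratio of densities ran the other way, with 13.6 in Cas9 and 17.4 in RGM, since the local background was 1.11 in Cas9 and 1.73 in RGM. Over the whole interval between the genes the density was 1.21 (1.16 to 1.25) in Cas9 and 1.79 (1.73 to 1.85) in RGM, a ratio of 0.674 (0.640 to 0.709). Across the genes of the cluster the same ratio was 0.713 at Dlk1, 0.642 at Meg3, 0.577 at Rtl1, 0.782 at Rian, 0.704 at Mirg and 0.659 at Dio3. The median density of chromosome 12 was 0.846 in Cas9 and 0.907 in RGM. With anti-GZF1 the highest bin held 5 reads in the knockout (density 0.152), a log2 value of -0.81. It held 59.4 reads (density 1.66) in the Cas9 control, which at 0.20 was itself far from a peak. In wild-type cells it held 55 reads in Cas9 (density 2.33, log2 value 1.165) and 42 in RGM (density 4.88, log2 value 1.30). The input held 0 reads there.

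**Figure D5:**
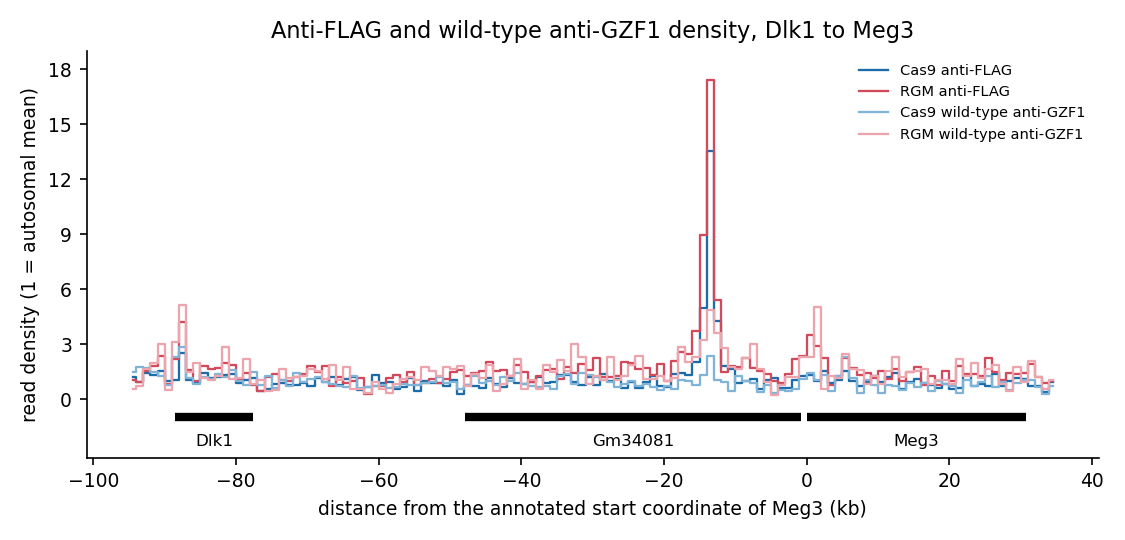
Read density per 1 kb bin (1 is the autosomal mean of the library) from Dlk1 to Meg3 by distance from the annotated start coordinate of Meg3, for both anti-FLAG and both wild-type anti-GZF1 libraries. Both clones have 1 dominant peak inside Gm34081, with a density of 13.6 in Cas9 and 17.4 in RGM, and the density around it is higher in RGM.

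Apart from that peak, most imprinted gene windows stayed below the peak threshold in both clones. Of 49 imprinted gene windows, each the gene with 2 kb on either side, those past the peak threshold were Zrsr1, an imprinted splicing-factor gene, and Commd1, in whose intron Zrsr1 lies, through the same bin. That bin had 307.4 reads in Cas9 and 178.3 in RGM at chr11:22972001-22973000, with log2 values of 2.31 and 1.60 and a ratio of 1.69. Both clones also reached 1 in the same bin in the windows of Copg2 (1.496 in Cas9, 1.80 in RGM), Grb10, a growth-inhibiting adaptor (1.28 in Cas9, 1.26 in RGM), Gnas (1.16 in Cas9, 1.51 in RGM), Herc3 (1.15 in Cas9, 1.65 in RGM), Peg12 (1.13 in Cas9, 1.18 in RGM), Peg3 with Usp29 (1.13 in Cas9, 1.11 in RGM), Dio3 (1.08 in Cas9, 1.11 in RGM) and Snrpn (1.11 in Cas9, 1.06 in RGM). Several of these bins were higher in the Cas9 input. Its log2 value was 2.18 at Copg2, 1.36 at Peg12, 1.21 at Dio3 and 1.15 at Peg3 with Usp29. The input was lower than both clones at Snrpn (1.01), Gnas (0.79), Grb10 (0.49), Herc3 (0.27) and Zrsr1 (-0.14). In the Copg2 bin the knockout also had a log2 value of 1.53. The part of the input in these values was not tested. The windows held from 5 bins (Mcts2) to 477 (Trappc9), and a longer window has more bins that can reach 1. A share over windows of all genes was not computed, and the gene-end shares that follow are a different measure. At the ends of the imprinted genes, 4 of 49 (8.16%) were at 1 or more in Cas9, 13 (26.5%) in RGM and 3 (6.12%) in both. Over all 44382 genes the shares were 3.58% in Cas9, 10.7% in RGM and 2.8% in both.

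Gene ends of the other groups also had the higher count in RGM, as over all genes, and few passed in Cas9. Over all genes 3.58% were at 1 or more in Cas9 and 10.7% in RGM. In Cas9 the lists below had shares of 0% to 6.67%. Shares in RGM were 4.17% for differentiated, 9.09% for germline, 10% for methylation, 13% for pluripotency and 13.6% for BTB zinc-finger genes. They were 18.8% for fibroblast, 20% for ribosomal protein and 23.3% for GDNF-RET genes. Among 30 genes of GDNF-RET signalling 1 was at 1 or more in Cas9, Gzf1 itself, and 7 were in RGM. Gzf1 stood at 1.01 in Cas9 and 1.05 in RGM on the log2 scale, and Ret, the receptor kinase, 0.95 in Cas9 and 1.23 in RGM. Of 23 pluripotency genes none was at 1 or more in Cas9 and 3 were in RGM, led by Lin28a, an RNA-binding repressor of let-7 (0.68 in Cas9, 1.16 in RGM). Of 30 genes of DNA methylation and imprint maintenance 2 were in Cas9 and 3 in RGM. They included Smchd1, an X-inactivation factor (1.03 in Cas9, 1.48 in RGM), and Uhrf1, the partner of maintenance methylation (1.05 in Cas9, 0.98 in RGM). Of 40 ribosomal protein genes none was in Cas9 and 8 were in RGM, of 22 germline genes none in Cas9 and 2 in RGM, and of 22 BTB zinc-finger genes 1 in Cas9 and 3 in RGM. Fibroblast genes counted 1 of 16 in Cas9 and 3 of 16 in RGM, with Vim at 1.01 in Cas9 and 1.26 in RGM, and genes of differentiated tissues 0 of 24 in Cas9 and 1 of 24 in RGM. In all lists the peak threshold was reached by Zrsr1 alone.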

How the data were processed

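The deposited table held expected counts: reads per 1 kb bin, not scaled by the authors for library size, a read across a bin edge being divided between the bins (100% of values were multiples of 0.05). Per the submitters' processing notes, cutadapt, Bowtie2 2.5.4, SAMtools and deepTools were used with mm10. Whether duplicates or poorly mapped reads were removed is not given in the sources used here. The table held 8 of the 12 libraries, and the other 4 were not analysed here, so no anti-FLAG library without Gzf1-Flag and no RGM input entered.

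Each library was divided by its autosomal mean. Bins with a local background below 0.25 in either clone (145456) or an input above 3 times its mean (65199) were left out. The latter held 68 Cas9 and 84 RGM peak bins, 56 of them shared. Adjoining peak bins (gap up to 1 kb) formed a region. The members, gene lists and thresholds were chosen with earlier results of these data known. Named were the 15 shared regions with the highest value in their lower line, up to 12 line-specific regions each, imprinted windows and list members with the highest lower value. 253 of 260 listed symbols matched the RefSeq gene table, and promoters came from 25295 RefSeq windows of 21132 genes on 18 autosomes. Some regions the rule names are not reported here. Gene ends are both annotated ends. Reads were rounded for intervals. The scripts were run on simulated counts as a check of the code. Python 3.11.15, numpy 2.4.6, pandas 2.3.3, scipy 1.17.1 and matplotlib 3.10.9 were used. Alternatives were other pseudocounts, background widths, thresholds, input and background filters, scaling to the median, and matching within 1 bin.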

Additional observations from a re-analysis of the deposited data

Results flagged for a closer look

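Chromosome X lay outside the autosomal comparison and carried peaks of its own. Of 129579 chromosome X bins compared, 10 were peak bins in the Cas9 clone and 5 in the RGM clone, and all 5 RGM bins were also peaks in Cas9. The 5 shared bins had log2 values of 2.09 to 3.41 in Cas9 and 2.04 to 2.93 in RGM (anti-FLAG), above the Cas9 control with anti-GZF1 (0.06 to 0.82) and the Gzf1 knockout (0.10 to 0.78). The highest, chrX:75578001-75579000, had 473.6 reads in Cas9 and 209.4 in RGM, with log2 values of 3.41 and 2.93. The log2 values were closer than the reads, since each sets the bin against the local background of its own clone. The part of chromosome X coverage in the reads and in the number of peak bins was not tested. With anti-GZF1 over these bins, Cas9 wild type was at 1.42 to 2.18 and RGM wild type at 1.49 to 2.22. No chromosome X bin was a peak in one clone and below 1 in the other.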

How the results depend on the processing

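Of 131 alternative values 40 moved, and these are given below. Counts of bins cannot change sign, so a change of sign was possible for the medians and single log2 values alone, and none of these changed sign. The order of the 2 totals turned round with a pseudocount of 0.25 (175 peak bins in Cas9, 185 in RGM) and at a threshold of 1.5, and not at the other settings. With a pseudocount of 0.25 there were 185 RGM peak bins, 4 Cas9-specific and 24 RGM-specific bins, and with 1 there were 77 Cas9, 47 RGM and 39 shared peak bins and 3 RGM-specific ones. A background of 5 bins on each side gave 89 Cas9 peak bins, 1 Cas9-specific and 5 RGM-specific bins, and one of 20 bins gave 3 Cas9-specific bins. A threshold of 1.5 gave 331 Cas9, 703 RGM and 171 shared peak bins with 57 Cas9-specific and 283 RGM-specific ones, and a threshold of 3 gave 10, 8 and 6 with 2 RGM-specific ones. Without the upper input filter there were 202 Cas9, 177 RGM and 125 shared peak bins. Without the background filter there were 2 Cas9-specific and 15 RGM-specific bins, and with the other line below 0.5 there were 5 RGM-specific bins. The wild-type medians at shared bins were 1.52 (pseudocount 0.25) and 1.16 (pseudocount 1) in Cas9 and 1.27 (pseudocount 1) in RGM. The peak between Dlk1 and Meg3 had 3.34 and 2.78 in Cas9 and 3.16 and 2.75 in RGM under the same pseudocounts. Gene list medians moved for differentiated genes in Cas9 (0.387 and 0.257) and, with a pseudocount of 1, for germline (0.412), imprinted (0.446) and pluripotency genes (0.375) in Cas9 and methylation (0.493) and pluripotency genes (0.469) in RGM. The cause was not tested. The order of the 2 totals, the absence of Cas9-specific bins and the share of RGM peak bins that were shared thus depend on these settings (69 of 93 bins as reported, 94 of 185 with a pseudocount of 0.25 and 171 of 703 at a threshold of 1.5). No paired analysis was possible because each clone is 1 library and the result comes from no test. Depth limits single bins most in RGM wild type (8.61 reads per bin) and input (3.93 reads per bin).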
